A study of Mus musculus with 10 samples.

Results

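The accessible chromatin of 10 mouse genes of the smooth muscle contractile programme, Acta2, Tagln, Cnn1, Cnn2, Myl9, Tpm1, Tpm2, Actg2, Vcl and Srf, was described in fibroblasts. The genes were chosen by name. Their sites were all those of the deposited list that overlapped a gene body or the 50 kb on either side of it. This gave 190 sites of the 153924 on the list, or 0.123%.

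The cells were immortalized mouse embryonic fibroblasts, a line derived from connective tissue cells of the embryo. They lived on a lentiviral FKBP-HA2-ASH2L fusion, whose ASH2L is the human protein and belongs to the core of the histone H3 lysine 4 methyltransferases. In every group, controls included, the floxed endogenous Ash2l gene had been deleted with an inducible Cre. The assay was made on NG3, which is a single clone. The compound dTAG-13 links the FKBP tag to the ubiquitin ligase substrate receptor Cereblon and so brings about degradation of the fusion protein. ATAC-seq, in which the Tn5 transposase cuts and tags open DNA, was made in 5 groups of 2 libraries, without dTAG-13 (ethanol alone by the study's methods) and after 30 min, 4 h, 8 h and 24 h of dTAG-13. The list used here pools all 10 libraries and gives a chromosome, a start and an end for each site, with no value per library. No effect of dTAG-13 on these genes could therefore be measured, replicate error could not be given, and depth is unknown. A listed site may be open in all cells or in a share of them, which cannot be told apart in bulk material, and it says nothing of the level of the RNA.

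Smooth muscle cells and contractile fibroblasts share an actin and myosin apparatus that pulls on the matrix through adhesion plaques. Many of its genes are targets of the serum response factor SRF, which binds the CArG box, a CC and a GG pair enclosing a run of A or T bases. SRF acts with myocardin or with the related factors Mrtfa and Mrtfb, which move into the nucleus when free actin monomers become scarce, and the 10 genes include both its classical targets and Srf itself. Acta2 encodes smooth muscle alpha-actin, the usual marker of myofibroblasts, and Actg2 the enteric smooth muscle gamma-actin. Tagln (transgelin) and the calponins Cnn1 and Cnn2 bind actin filaments, Myl9 is a regulatory myosin light chain, Tpm1 and Tpm2 are tropomyosins, and Vcl encodes vinculin, which ties actin to adhesion plaques.

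The letters before the starts of 4 of the genes are shown because a CArG box lay there, inside an accessible site in each case. They were taken from the RefSeq promoter table (GRCm38.p6), which held 8 of the 10 genes. Tagln and Actg2 were not among them. Each run reads 5′ to 3′ on the strand of its gene and stops at the base before the first annotated exon, and capitals mark the CArG boxes. Cnn2 is chr10:79988350-79988583 on the plus strand, Myl9 is chr2:156775214-156775419 on the plus strand, Vcl is chr14:20929148-20929397 on the plus strand and Srf is chr17:46556176-46556412 on the minus strand.
Cnn2: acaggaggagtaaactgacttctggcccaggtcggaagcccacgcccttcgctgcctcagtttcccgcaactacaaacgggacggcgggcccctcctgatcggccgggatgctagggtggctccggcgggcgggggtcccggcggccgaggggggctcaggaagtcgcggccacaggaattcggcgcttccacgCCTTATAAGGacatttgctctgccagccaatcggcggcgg
Myl9: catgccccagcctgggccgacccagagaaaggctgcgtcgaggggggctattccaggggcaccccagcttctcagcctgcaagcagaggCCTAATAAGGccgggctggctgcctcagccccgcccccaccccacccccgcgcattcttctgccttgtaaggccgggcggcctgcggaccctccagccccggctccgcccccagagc
Vcl: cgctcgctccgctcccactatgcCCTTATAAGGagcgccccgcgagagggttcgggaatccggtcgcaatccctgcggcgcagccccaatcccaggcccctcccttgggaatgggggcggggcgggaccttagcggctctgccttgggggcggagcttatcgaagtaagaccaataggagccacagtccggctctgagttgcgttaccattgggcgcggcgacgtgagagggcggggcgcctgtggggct
Srf: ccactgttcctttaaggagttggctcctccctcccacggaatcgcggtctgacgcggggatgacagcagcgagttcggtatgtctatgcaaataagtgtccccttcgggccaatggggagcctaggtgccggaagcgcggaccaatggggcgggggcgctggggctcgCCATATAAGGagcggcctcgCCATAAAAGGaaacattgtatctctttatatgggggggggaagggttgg

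In Acta2 and Cnn1 the box lay inside the accessible site but in the first intron. The 60 bases around it are shown on the strand of the gene, for Acta2 chr19:34254263-34254322 on the minus strand and for Cnn1 chr9:22100101-22100160 on the plus strand.
Acta2: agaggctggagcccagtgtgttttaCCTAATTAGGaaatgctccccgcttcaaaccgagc
Cnn1: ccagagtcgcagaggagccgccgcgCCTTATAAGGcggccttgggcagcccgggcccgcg

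The reference start was the start of the principal protein-coding transcript in GENCODE M21, and a promoter site was a site within 1 kb of any annotated start of the gene. All 10 genes had a promoter site, against 70.8% of the 21938 protein-coding genes, and all 10 had a site lying over the reference start itself, against 59.8%. Tpm1, Tpm2 and Srf had 2 promoter sites each, where 21.7% of coding genes had 2 or more. No test was made on any of these shares, because the genes were chosen with earlier results of these data known.

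The actin genes had unlike sites. The site of Acta2 (chr19:34253804-34255983, 2180 bp) began 393 bp before the reference start and ran 1786 bp past it, so that most of it lay over the first exon and the first intron, and it took in the second annotated start at 1360 bp. The site of Actg2 (chr6:83536140-83536888, 749 bp) lay mostly before the start, with 623 bp before it and 125 bp after it. The 4 internal Actg2 starts, between 8275 and 9363 bp downstream, had no site within 1 kb. The widest promoter site of Acta2 was wider than those of 91.1% of the coding genes that had one, and that of Actg2 was wider than those of 10.3%.

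Among the filament-binding proteins, the site of Tagln (chr9:45935368-45937377, 2010 bp) reached 1319 bp before the start and 690 bp after it, covering all 3 annotated starts. The site of Cnn1 (chr9:22099055-22100688, 1634 bp) lay the other way, with 213 bp before the start and 1420 bp after it. It covered 3 of the 5 annotated starts, and the fifth, 5177 bp downstream, had no site within 1 kb. Cnn2 had the narrowest promoter site of the 10 (chr10:79988309-79989019, 711 bp), with 275 bp before the start and 435 bp after it. The site of the myosin light chain gene Myl9 (chr2:156774410-156776345, 1936 bp) lay almost evenly about the start. It had 1010 bp before the start and 925 bp after it.

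The tropomyosin gene Tpm1 is known to give long isoforms from an upstream and short ones from an internal promoter. It had 21 annotated starts, in 2 main clusters, and each cluster was covered by a site of its own. The first site (chr9:67048659-67050022, 1364 bp) covered the 13 starts of the upstream cluster. The second (chr9:67043317-67044342, 1026 bp) covered the 7 starts that lie 5444 to 5697 bp downstream, and its CpG ratio, observed over expected, was 0.756. The last start, 16581 bp downstream, had no site within 1 kb. Tpm2 had the widest promoter site of the 10 genes (chr4:43522056-43524918, 2863 bp), wider than those of 98.7% of the coding genes with one, and it held 5 of the 6 starts. Its second site (chr4:43519946-43520451, 506 bp) lay in the second intron, near the start of a processed transcript that the site itself did not reach.

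The site of Vcl (chr14:20928743-20930239, 1497 bp) had 655 bp before the start and 841 bp after it, and the other Vcl start, 92605 bp downstream, had no site within 1 kb. Srf had a site of 2196 bp (chr17:46554545-46556740), with 565 bp before the start and 1630 bp after it. Its second promoter site was small (chr17:46549314-46549572, 259 bp) and lay over the sixth exon, near the start of a transcript with a retained intron, so it counts as a promoter site by the 1 kb window only.

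**Figure D1:**
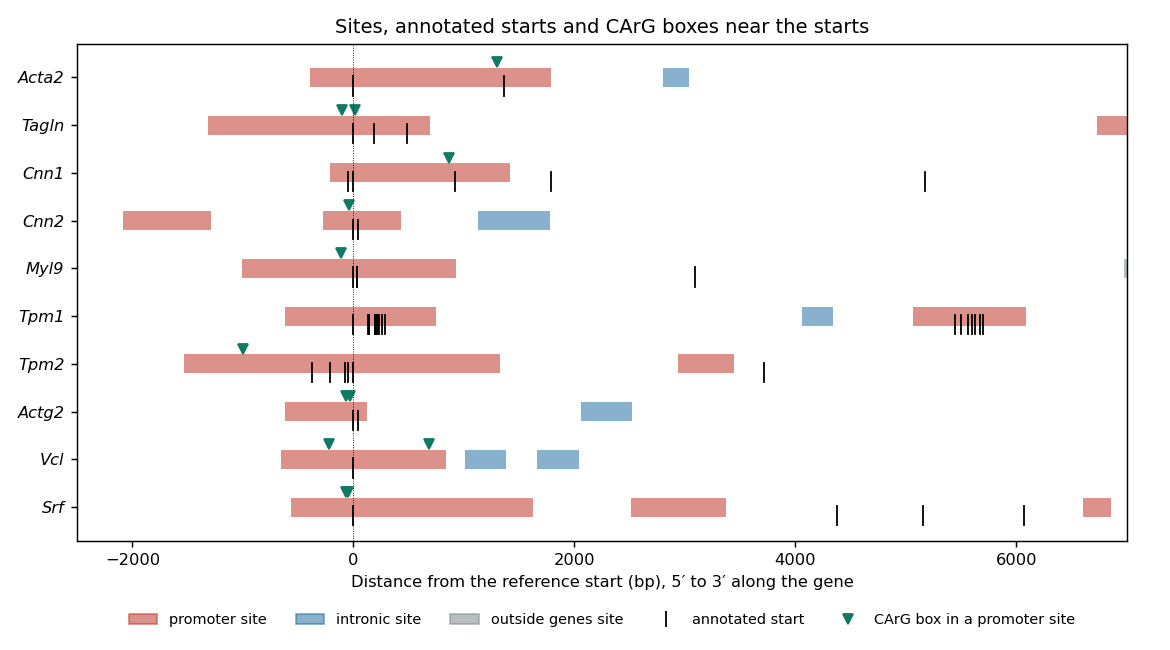
Sites near the starts of the 10 genes, drawn as bars against the distance from the reference start in bp (positive values are downstream), with annotated starts as black ticks and CArG boxes in promoter sites of the same gene as green triangles; bars coloured as promoter sites include those at starts of neighbouring genes. A site lies over the reference start of all 10 genes, and the bars of Acta2, Cnn1 and Srf extend mostly downstream.

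Widths ran from 711 bp in Cnn2 to 2863 bp in Tpm2, with a median of 1785 bp over the 10 genes. The median over the 15530 coding genes with a promoter site was 1412 bp, with quartiles of 1107 and 1753 bp. The widest site exceeded the coding gene median in 7 of the 10 genes and the upper quartile in 5, namely Acta2, Tagln, Myl9, Tpm2 and Srf. Cnn2 and Actg2 lay below the lower quartile. Among the related gene lists described below, the non-muscle counterparts had a wider median of 2051.5 bp. The medians were 1641 bp for adhesion plaque genes and 1546 bp for SRF cofactors. Other smooth muscle contractile genes had 1235 bp and striated muscle counterparts 1175 bp.

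CpG content divided the genes. Over the 1 kb around the reference start the CpG ratio was lowest in Actg2 (0.187, 12 CpGs) and next in Cnn1 (0.224, 16 CpGs), Acta2 (0.284, 15 CpGs), Tagln (0.353, 26 CpGs) and Myl9 (0.360, 33 CpGs). It was higher in Tpm2 (0.563, 57 CpGs), Tpm1 (0.613, 62 CpGs), Cnn2 (0.734, 73 CpGs) and Srf (0.822, 93 CpGs), and highest in Vcl (0.898, 97 CpGs). The median over coding genes was 0.571, so 4 of the 10 genes lay above it. GC content ran from 46.0% in Acta2 to 67.4% in Srf, with 6 of the 10 above the coding gene median of 55.3%.

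A CpG island window, here at least 200 bp with a GC share above 0.5 and a CpG ratio above 0.6 outside repeats, was found at the reference start of 6 genes, Cnn2, Myl9, Tpm1, Tpm2, Vcl and Srf. The share over all coding genes was 65.2%. Under a stricter definition (500 bp, 0.55 and 0.65) Cnn2 and Vcl alone kept one. Acta2, Tagln, Cnn1 and Actg2 had no island window, with CpG ratios between 0.187 and 0.353, and all 4 had a promoter site. Over all coding genes, 31.6% of the 7638 without an island window had a promoter site, against 91.7% of the 14300 with one. The call depends on repeats: with soft-masked bases kept, Tagln and Cnn1 had an island window too, and Acta2 and Actg2 alone were without. By that reading 29.1% of the 6976 coding genes without an island window had a promoter site.

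The widest promoter site had a median of 1822 bp in the 4 genes without an island window (749 to 2180 bp) and of 1716.5 bp in the 6 with one (711 to 2863 bp). Over coding genes with a promoter site, the median was 949 bp without an island window and 1463 bp with one. Set against the 2412 coding genes that had a promoter site but no island window, Acta2 was wider than 96.4%, Tagln than 94.3%, Cnn1 than 85.8% and Actg2 than 36.5%. With soft-masked bases kept, the medians were 1464.5 bp in the 2 genes without an island window and 1785 bp in the 8 with one, so their order turned. Acta2 was then wider than 97.1% and Actg2 than 38.9% of the 2028 coding genes with a promoter site and no island window.

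**Figure D2:**
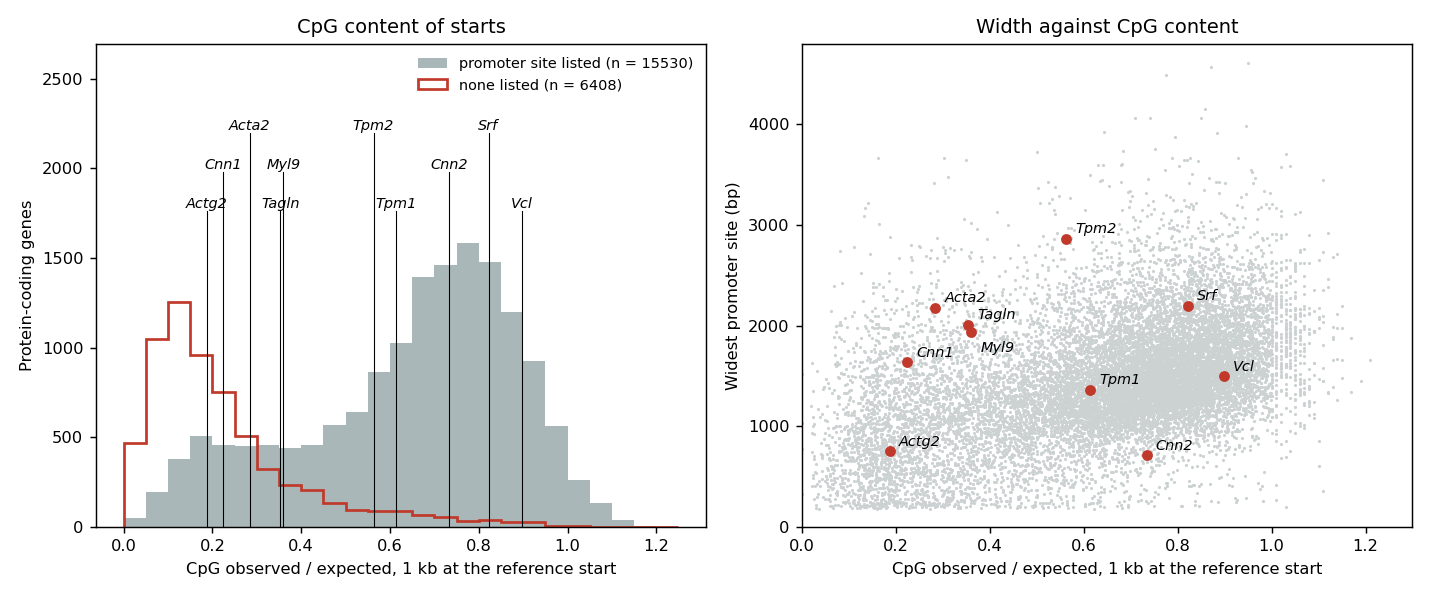
Left, protein-coding genes by the CpG observed to expected ratio of the 1 kb around the reference start, with a promoter site (grey bars, n = 15530) and without (red line), and the 10 genes as labelled lines. Right, the width in bp of the widest promoter site against that ratio, with coding genes as grey points and the 10 genes in red; Acta2, Tagln, Myl9 and Cnn1 lie at low ratios with widths between 1634 and 2180 bp.

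A CArG box, read as CC, 6 bases of A or T, and GG on either strand (the motif is its own reverse complement in form), lay within 500 bp of the reference start in 6 of the 10 genes, against 4.26% of coding genes. Of the related gene lists described below, 3 of 10 other smooth muscle contractile genes and 3 of 10 non-muscle counterparts had one. So had 4 of 16 striated muscle counterparts, 1 of 7 SRF cofactors and 0 of 10 adhesion plaque genes. Tagln had boxes at −112 and +11 bp from the reference start, 123 bp apart. Actg2 had boxes at −68 and −31 bp, 37 bp apart, and Srf at −69 and −49 bp, 20 bp apart. Single boxes lay at −40 bp in Cnn2, −117 bp in Myl9 and −227 bp in Vcl. The same 6 genes had a box between 250 bp before and 50 bp after the reference start, where 1.49% of coding genes did. In the RefSeq promoter table, whose windows have the same length but other starts, 1.63% of the 32851 promoters held a box, and 4 of the 8 genes found there.

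All of these boxes lay inside accessible sites. Over the whole promoter site, 9 of the 10 genes held a box, against 6.84% of coding genes with a promoter site. The added ones were at +1293 bp in Acta2 and at +858 bp in Cnn1, both in the first intron, and at −1000 bp in Tpm2. First-intron CArG boxes of these 2 genes are known from reporter studies of smooth muscle. Vcl had a second box at +681 bp. Tpm1 had no box in either promoter site, and its only box in any site of the locus was at −28981 bp. With 1 base other than A or T allowed in the centre, Acta2 joined the genes with a box within 500 bp, making 7, but 27.0% of coding genes then had one.

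Many CArG boxes of the 10 loci were in accessible sites. The loci, each a gene body with 50 kb on either side, held 83 boxes, and 27 of them (32.5%) lay in a site, while sites covered 13.1% of the bases. Leaving out the genes' own promoter sites, 14 of 70 boxes lay in sites that covered 11.7% of the rest. Over the loci of all coding genes, 5.66% of the boxes lay in sites that covered 5.37% of the bases. By gene the count ran from 1 of 14 boxes in the Tpm1 locus and 1 of 7 in the Myl9 locus to 8 of 14 in the Vcl locus and 3 of 5 in the Srf locus. The pooled shares thus lean on the Vcl locus, which gave 8 of the 27 boxes in sites. Of these 8, 2 lay in the Vcl promoter site and 3 in a single site at −37.2 kb. Those outside the promoter site are among the 14 above, so that share leans on Vcl as well.

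The letters CCTTATAAGG recurred in the sequences shown, in the promoters of Cnn2 and Vcl, in the first intron of Cnn1 and in the Acta2 site at −10.3 kb. The first 3 were among the 13 boxes in the genes' own promoter sites (23.1%), whereas 2.14% of the boxes in all sites had these letters. The comparison was chosen after the sequences were seen.

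In all, the 190 sites comprised 13 promoter sites of the 10 genes, 29 other sites over their bodies and 148 in the flanks. By position in the annotation of all genes, 60 were at a start (31.6%, Wilson 95% interval 25.4 to 38.5%), against 17.2% of all sites. Exonic sites numbered 12 (6.32%, interval 3.65 to 10.7%), against 3.23%, and intronic sites 66 (34.7%, interval 28.3 to 41.7%), against 40.9%. The remaining 52 lay outside genes (27.4%, interval 21.5 to 34.1%), against 38.6%. The loci were drawn around coding genes, and the 60 include the 13 promoter sites of the 10 genes. The whole list was not restricted in that way, so the shares are not like for like. The intervals cover counting error only, and neighbouring sites are not independent of each other. Sites at starts had a median width of 1108 bp and the others of 570 bp, close to the medians of 1061 and 565 bp over the whole list.

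**Figure D3:**
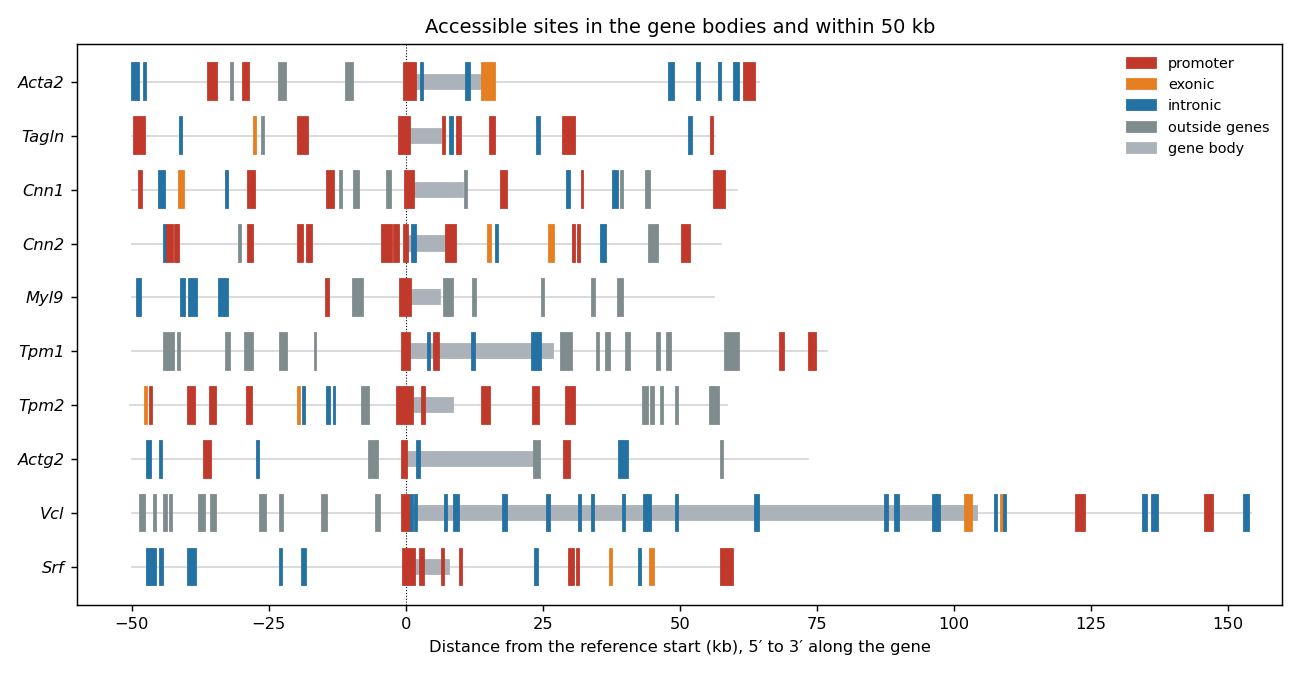
The 190 sites in the bodies and 50 kb flanks of the 10 genes against the distance from the reference start in kb, coloured by position in the annotation (promoter means within 1 kb of any gene's start), with gene bodies in grey and narrow sites drawn wider than scale to stay visible. Vcl has sites along most of its body, while Tagln, Cnn1 and Myl9 have none in the body beyond the promoter.

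All 10 genes had at least 1 site over the body, promoter included, where 77.1% of coding genes did. Vcl had 19, Tpm1 had 5, Acta2 had 4, Cnn2, Actg2 and Srf had 3 each, Tpm2 had 2, and Tagln, Cnn1 and Myl9 had 1 each. Long genes have more room for sites, so each gene was set beside coding genes whose length was within 1.25-fold of its own. Vcl, 104279 bp long, had 19 against a median of 8, and 96.2% of the 1268 genes of like length had fewer. Cnn2 with 3, Srf with 3 and Acta2 with 4 had more than 93.2%, 92.6% and 91.6% of the genes of their length, whose medians were 1, 1 and 2. Tpm1 with 5, Tpm2 with 2 and Actg2 with 3 had more than 85.8%, 66.6% and 58.6%. Myl9, Tagln and Cnn1, with 1 each, had more than 41.2%, 40.2% and 25.4%. The counts take in sites at or near other genes' starts, those of Abca7 in Cnn2 and of Mir6976 in Srf.

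Of the 29 body sites that were not promoter sites of the gene itself, 24 were intronic. Vcl alone had 18 of the 29. In Vcl, 8 lay in the first intron (37849 bp, sites of 208 to 960 bp) and 4 in the second (14965 bp, sites of 250 to 654 bp). The sixth intron held 1 site, the fourteenth 2 and the eighteenth 2. The last lay over exon 21 (chr14:21031482-21032719, 1238 bp) and was the widest site of the locus at no start. Most of these Vcl sites were narrow and CpG-poor, and 4 of them held no CpG pair at all.

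The bodies of the other genes held fewer sites. Acta2 had a site of 238 bp in the first intron at 2.92 kb, one of 602 bp in the seventh intron at 11.3 kb and one of 443 bp over the ninth exon at 14.2 kb. Tpm1 had sites in the second intron at 4.20 kb (278 bp) and 12.4 kb (522 bp) and a wide one of 1685 bp in the eighth intron at 23.9 kb. Actg2 had a site of 461 bp in the first intron at 2.29 kb, and its other body site (1093 bp) lay mostly beyond the 3′ end. Cnn2 had a site of 648 bp in the first intron at 1.46 kb, and its other body site (1834 bp) lay at the 3′ end over the start of the neighbouring gene Abca7. The body site of Srf (867 bp, second intron, 2.94 kb) lay by the start of the microRNA gene Mir6976 and held a CArG box.

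**Figure D4:**
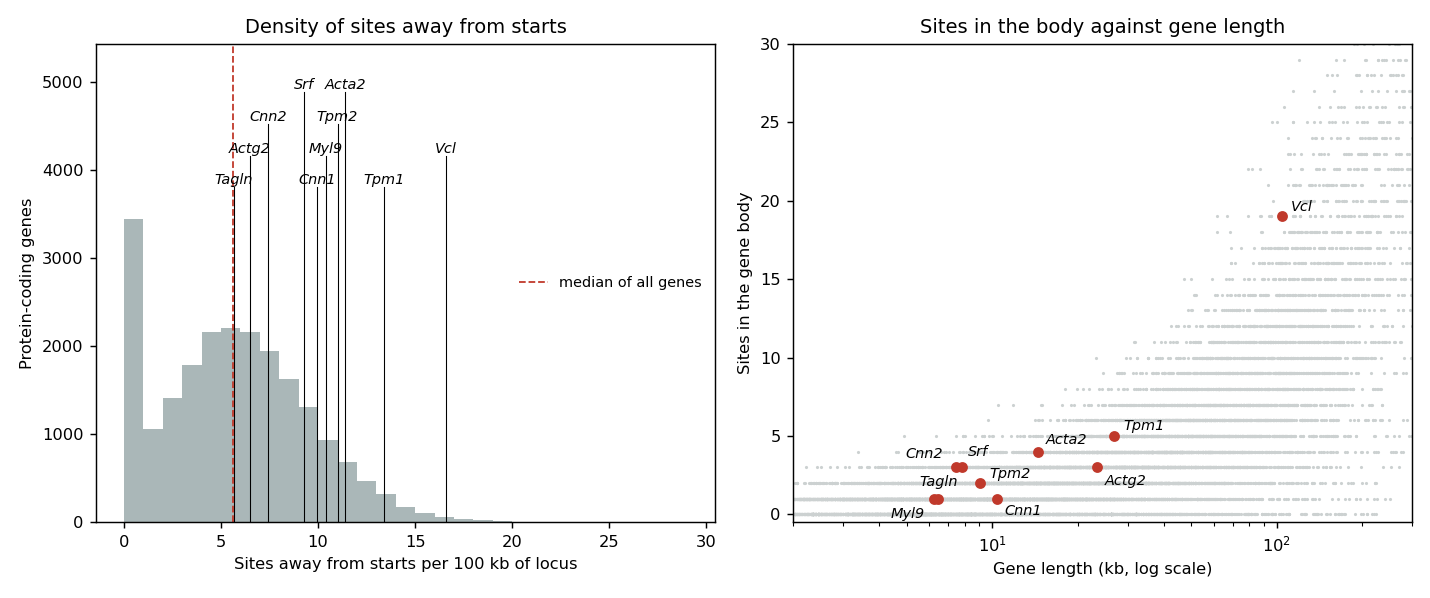
Left, protein-coding genes by the number of sites away from starts per 100 kb of locus (body and 50 kb flanks), with the median of all genes dashed and the 10 genes as labelled lines; all 10 lie above the median of 5.59. Right, the number of sites in the gene body against gene length in kb on a log scale, with coding genes as grey points (those above 30 sites are beyond the axis) and the 10 genes in red; Vcl has 19 sites.

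The surroundings of the genes were rich in sites. Counted over body and flanks, density ran from 8.92 sites per 100 kb at Actg2 to 19.5 at Cnn2, with a median of 16.0, and the median over coding genes was 8.66. All 10 loci were above that median and 9 were above the upper quartile of 12.1, Actg2 being the exception. A density above that of coding genes was not particular to the 10 genes, though their median was the highest of the lists. The related gene lists described below had medians between 11.4 for SRF cofactors and 13.8 for adhesion plaque genes. Among the cell type markers the medians ran from 8.44 for endothelial to 14.7 for fibroblast markers, with 14.1 for cardiac markers. Of all these lists, the endothelial markers alone lay below the coding gene median. Part of a locus count is made of other genes' promoters. Of the 148 flank sites, 40 (27.0%) lay at a start of another coding gene, 10 of them at the Cnn2 locus. Sites away from any start were therefore counted too. Their density had a median of 10.2 per 100 kb over the 10 loci against 5.59 over coding genes, all 10 were above it, and 7 were above the upper quartile. Vcl was highest at 16.6, above 99.5% of coding genes, followed by Tpm1 at 13.4 and Acta2 at 11.4, and Tagln was lowest at 5.64. Gene density itself was above the median at 5 of the 10 loci.

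Chromosomes differ in how many sites they carry. Densities on the chromosomes that hold the 10 genes ran from 4.92 per 100 kb on chromosome 14, where Vcl lies, to 8.43 on chromosome 10, where Cnn2 lies. Beyond 75 Mb on chromosome 10, the stretch with Cnn2 in it, the density was 11.2, and the Cnn2 locus at 19.5 was above that as well.

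Promoter sites of neighbouring coding genes fell in the flanks of all 10 genes. The Acta2 flanks held promoter sites of Fas, a death receptor, and Stambpl1. The Tagln flanks held those of Pcsk7, Rnf214, Sidt2 and Pafah1b2, and the Cnn1 flanks those of Elavl3, Zfp653, Gm49318, Ecsit, Elof1, Acp5 and Pigyl. Those of Cnn2 belonged to Arid3a, Wdr18, Grin3b, Tmem259, Arhgap45 and Polr2e. A gene of the same apparatus lies beside Tpm2, namely Tln1, which encodes talin, a partner of vinculin in adhesion plaques. It had 3 promoter sites in the flank of Tpm2, at −28.5, −35.3 and −39.1 kb, and the middle one held a CArG box near its centre. The other Tpm2 neighbours with a promoter site were Creb3, Gba2, Car9, Arhgef39 and Ccdc107. Vcl shared its 3′ flank with Ap3m1 and Adk, Srf had Cul9 and Dnph1, Actg2 had Dguok and Stambp, Tpm1 had Lactb and Myl9 had Dlgap4.

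The widest site at no start differed in width between the loci, from 587 bp at Tagln to 2736 bp at Tpm1. The Tpm1 site lay outside genes, 59.5 kb downstream of the start (chr9:66988511-66991246). Myl9 had one of 1766 bp at −8.79 kb (chr2:156765751-156767516) and Tpm2 one of 1285 bp at −7.33 kb (chr4:43530075-43531359), both outside genes. Acta2 had one of 1696 bp just past its 3′ end at 15.5 kb, over an exon of Stambpl1, and Actg2 one of 1736 bp at 39.7 kb in an intron of Dguok. Cnn2 had one of 1680 bp at 45.2 kb, Srf one of 1449 bp at −39.0 kb in Ptk7 and Cnn1 one of 1104 bp at −44.5 kb. The Tagln site, at 8.30 kb in Pcsk7, was narrower than the median of the whole list (619 bp). At 587 bp it was wider than the median of 565 bp over all sites of the list at no start. The CpG ratio of these sites lay between 0.0248 at the Tagln locus and 0.447 at the Cnn1 locus.

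Motif searches in the middle 200 bp of each site gave a CArG box in 7 of the 190 sites (3.68%, interval 1.80 to 7.41%), against 1.41% of all sites. Among the 130 sites at no start there were 5 (3.85%, interval 1.65 to 8.69%), against 1.52%. They lay at −10.3 and −22.5 kb from Acta2, outside genes, at −43.9 kb from Cnn2 in an intron of Arid3a, and at −26.1 and 89.7 kb from the Vcl start, the last in its fourteenth intron. The 2 sites at starts were the promoter site of Myl9 and the Tln1 site named above. Boxes away from the centre were more frequent, and the Vcl site at −37.2 kb (chr14:20891587-20892822, 1236 bp) held 3.

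The middle of the Acta2 site at −10.3 kb (chr19:34265826-34266025, minus strand) is shown because 3 of the motifs searched met there. They are the TEAD letters CATTCC, the AP-1 letters TGACTCA and a CArG box, each in capitals and in that order. A CArG box and an AP-1 match lay together in the middle 200 bp of 0.192% of all sites, and all 3 in 0.0332%. The Vcl site at −26.1 kb also held a CArG box and an AP-1 match in its middle 200 bp, without the TEAD letters. These shares were chosen for comparison after the sequences were seen. A match is a run of letters and not a measured binding site.
Acta2 −10.3 kb: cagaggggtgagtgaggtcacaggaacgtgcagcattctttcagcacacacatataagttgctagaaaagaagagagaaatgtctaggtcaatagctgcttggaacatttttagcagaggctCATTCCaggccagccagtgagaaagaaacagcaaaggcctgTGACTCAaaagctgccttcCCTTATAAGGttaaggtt

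Over the 190 sites the shares of the other motifs were below those of the whole list, with intervals that included them. The TEAD letters CATTCC, on either strand, were in the middle of 23 sites (12.1%, interval 8.20 to 17.5%), against 16.3% of all sites. The AP-1 letters TGACTCA, on either strand, were in 20 sites (10.5%, interval 6.92 to 15.7%), against 14.7%. Of these 20, 19 lay at no start. The consensus of CTCF, a factor that bounds chromatin loops, was in 5 sites (2.63%, interval 1.13 to 6.01%), against 2.84%. The 190 sites held more starts than the whole list, so the 130 sites at no start were read apart as well. Among these the TEAD letters were in 15 (11.5%, interval 7.12 to 18.2%, against 17.5% of all sites at no start) and the AP-1 letters in 19 (14.6%, interval 9.56 to 21.7%, against 16.3%). The CTCF consensus was in 5 (3.85%, interval 1.65 to 8.69%), which was above the 3.05% of all sites at no start, and the interval included that share.

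Related gene lists were set beside the 10 genes. All 7 SRF cofactors had a promoter site, 5 of them over the reference start, with Elk3 having the widest (2665 bp) and Mrtfa the most body sites (38). Myocd, which encodes myocardin, had 2 promoter sites, the wider of 847 bp. All 10 other smooth muscle contractile genes had one, 9 over the reference start. Among these Cald1 (caldesmon) had the widest at 2778 bp and Mylk, the myosin light chain kinase, the most body sites (39). The 10 non-muscle counterparts all had a promoter site, the widest at Actg1 (2928 bp), and Myh9 had the most body sites (22). So had the 10 adhesion plaque genes, with the widest at Actn1 (2602 bp) and 30 body sites each in Tln2 and Ptk2.

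Of the striated muscle counterparts, 12 of 16 had a promoter site, a share near that of all coding genes (70.8%). A site over the reference start was listed for 3 of 16, against 59.8% of coding genes and all 10 of the genes described here. Acta1, Myl1, Myl7 and Tnnt2, which encode sarcomere proteins of skeletal or heart muscle, had no promoter site. Mylpf had the widest promoter site of this list (2040 bp), which did not cover its reference start, and Tnni1 the most body sites (11). The list was also CpG-poor, with a median CpG ratio of 0.212 and an island window in 4 of 16. Of the 12 without an island window, 9 had a promoter site, where 31.6% of such coding genes did. The 10 genes had a median of 0.461.

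Cell type markers were checked in the same way, but some repeat genes of the lists above. All 5 smooth muscle markers were already counted as SRF cofactors or other smooth muscle contractile genes. Several skeletal and cardiac markers were already counted as striated muscle counterparts. All 8 fibroblast markers had a promoter site, 7 over the reference start, and so had all 5 smooth muscle markers, all 5 over the start. Of the skeletal muscle markers 1 of 6 had one, namely Ckm, of the cardiac markers 3 of 6 and of the blood markers 1 of 4. Myod1, Myog and Myf5, which direct skeletal muscle fate, had none. By contrast, Nkx2-5 of the cardiac markers had 3 promoter sites and Grhl2 of the epithelial markers had 6. Both of these genes had a site over the reference start. The 4 endothelial markers all had a promoter site, 2 of them over the reference start. Of the epithelial markers 3 of 4 had one, and all 3 had a site over the reference start. Such a site was listed for 1 of 6 skeletal muscle, 1 of 6 cardiac and 0 of 4 blood markers.

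**Figure D5:**
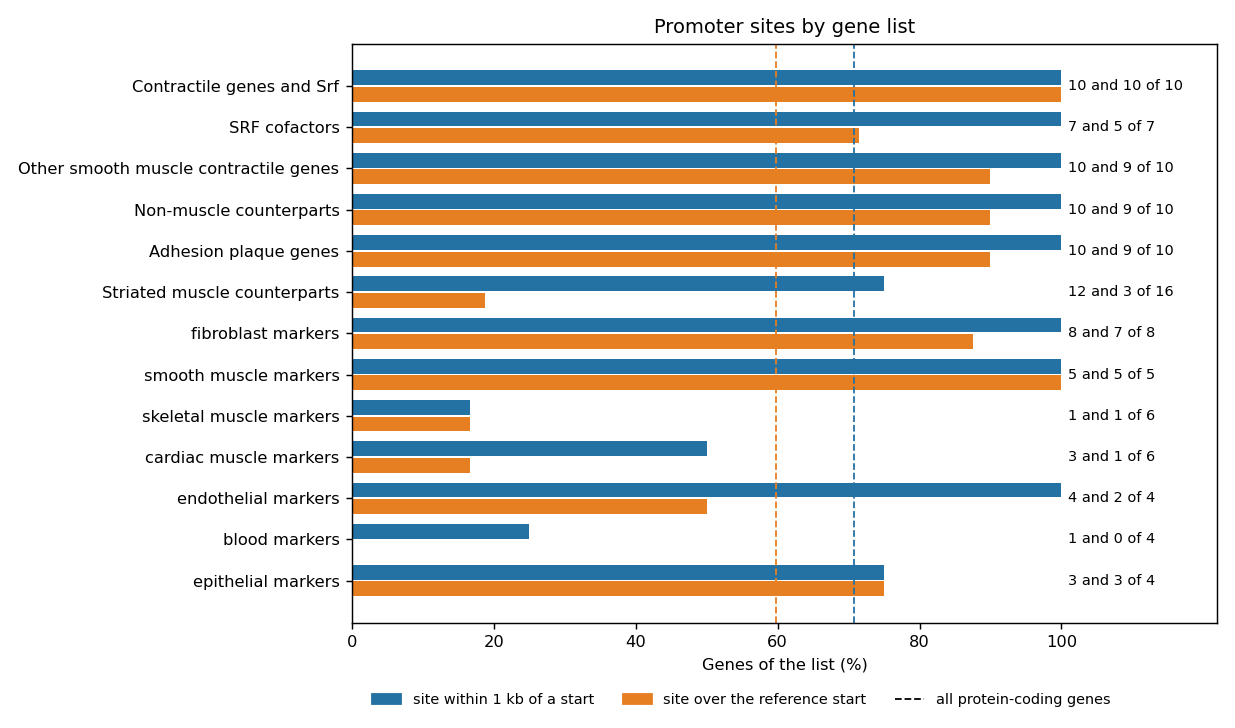
Percent of the genes of each list with a site within 1 kb of any annotated start (blue) and with a site over the reference start (orange), with the values for all protein-coding genes dashed (70.8% and 59.8%) and both counts printed at the right. The 10 contractile genes reach 10 of 10 on both, and the striated muscle counterparts 12 and 3 of 16.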

How the data were processed

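ATAC-seq libraries came from 5 groups of 2. Per the methods, the authors trimmed reads with Trim Galore, aligned them to mm10 with BWA, filtered with SAMtools, joined replicate alignments in Picard and used MACS for narrow peaks. Versions, the peak threshold, any Tn5 offset and how sites of different libraries were joined are not given in the sources used here. The deposited list holds positions only, which the authors made over all samples. Starts were read as counted from 0 and printed as counted from 1. Of the 153924 sites, 153682 lay on chromosomes 1 to 19, X and Y and were used.

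Sites were joined to GENCODE M21 and the GRCm38 genome by an overlap of at least 1 bp, with Python 3.11.15, NumPy 2.4.6, SciPy 1.17.1 and Matplotlib 3.10.9. Each site was classed, in this order, as promoter (within 1 kb of any start of any gene), exonic, intronic or outside genes. The CpG ratio and GC share were taken over 500 bp on either side of the reference start. The measures were tested on simulated data with planted sites, boxes and islands. No p-value was computed, since there is 1 pooled list.

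Named genes were the 10 genes, those of each list with no promoter site (where at most 5), with the widest promoter site or with the most body sites, and flank neighbours. Myocd, Ckm, Myod1, Myog, Myf5, Nkx2-5 and Grhl2 were named after their values were seen. The genes and lists were chosen with earlier results of these data known.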

Additional observations from a re-analysis of the deposited data

How the results depend on the processing

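The number of sites in the 10 loci follows the flank, with 95 sites at 20 kb and 323 at 100 kb in place of 190, and it was 108 when only sites of at least the median width (619 bp) were kept. Merging sites at most 100 bp apart left 187. The intronic share of 34.7% rose to 57.1% over gene bodies alone and was 24.1% for the sites of at least the median width. The stricter island definition left 2 genes with an island window in place of 6, and keeping soft-masked bases gave 8. All 10 genes kept a promoter site under the 6 alternatives tried (windows of 500 bp and 3 kb, the 5′ end or principal start alone, the middle of the site in the window, and wide sites only), and the median width stayed at 1785 bp under 3. The number of genes with a CArG box was between 6 and 9. Over whole sites a CArG box was in 11.1% of the 190 sites (4.42% of all sites), TEAD letters in 40.5% (39.3%) and AP-1 letters in 26.8% (29.4%).

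No paired analysis was possible because the deposited positions carry no library values, and the alternatives that leave out a library were not run for that reason. The depth and the height of the sites are unknown. The threshold behind the list and the joining of sites between libraries are not given in the sources used here, so absence from the list is not a measurement of closed chromatin.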
